A study of Rattus norvegicus with 84 samples.

Results

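The podocyte transcripts Nphs1, Podxl, Ptpro, Synpo and Wt1 were followed across 84 RNA sequencing libraries of rat tissue. They were taken by gene symbol, 5 of 16997 symbols at 17502 loci, and each symbol had a single locus. Total RNA came from kidney, liver and the gastrocnemius, a calf muscle, and the animals were outbred Sprague Dawley rats. In each tissue 10 libraries came from rats given vehicle from 4.5 months of age and read out at 6 months (young vehicle), and 10 from rats given vehicle daily from 22.5 to 24 months (aged vehicle). A further 8 libraries per tissue came from rats given RAD001 by mouth once a week over the same 6 weeks, 7 doses in all, with vehicle on the other days (RAD001). RAD001 is everolimus, an inhibitor of the kinase complex mTORC1, and the series asks whether such treatment moves age-related transcripts and kidney pathology. Every group was dosed with the microemulsion vehicle, and all rats were male.

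Podocytes are the epithelial cells that cover the outside of the glomerular capillaries. Their interlocking foot processes are joined by the slit diaphragm, a thin junction that lets water and small solutes pass into the urine and holds plasma proteins back, and loss or flattening of foot processes is the usual structural correlate of proteinuria. Podocytes are a small share of kidney cells, so in RNA of whole kidney powder a lower value can come from fewer podocytes or from less RNA per podocyte, and these cannot be told apart here.

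The 5 genes act at different places in the cell. Nphs1 (chromosome 1, 90077823 to 90106425, plus strand, rn5) encodes nephrin, the adhesion protein whose extracellular domains bridge the slit. Podxl (chromosome 4, 58581529 to 58628225, minus strand) encodes podocalyxin, the negatively charged sialomucin of the apical foot process membrane, also present on endothelium. Ptpro (chromosome 4, 235508259 to 235718672, plus strand) encodes the apical receptor tyrosine phosphatase GLEPP1. Synpo (chromosome 18, 55104199 to 55125190, minus strand) encodes synaptopodin, an actin-associated protein of foot processes and of neuronal spines. Wt1 (chromosome 3, 101756492 to 101802600, plus strand) encodes a zinc finger transcription factor that adult podocytes keep on and that is known to act on several podocyte genes. None of the 5 loci overlapped another locus of the deposited annotation.

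The stretch of 250 bases before the annotated start is shown for Nphs1, Podxl and Synpo. Nphs1 and Podxl were the pair that varied most closely between libraries. The age and RAD001 estimates of Synpo had signs opposite to those of Nphs1. Of these changes only that of Synpo with age was called. The sequences are RefSeq's for assembly GRCr8, which is not the rn5 build of the measured loci, and capitals mark a match to the GC-rich motif GNGGGGGNG.
Nphs1: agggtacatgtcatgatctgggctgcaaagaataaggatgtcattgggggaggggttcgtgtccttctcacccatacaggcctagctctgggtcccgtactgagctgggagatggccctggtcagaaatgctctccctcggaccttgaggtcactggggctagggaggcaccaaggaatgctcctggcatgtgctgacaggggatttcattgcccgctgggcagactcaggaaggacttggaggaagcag
Podxl: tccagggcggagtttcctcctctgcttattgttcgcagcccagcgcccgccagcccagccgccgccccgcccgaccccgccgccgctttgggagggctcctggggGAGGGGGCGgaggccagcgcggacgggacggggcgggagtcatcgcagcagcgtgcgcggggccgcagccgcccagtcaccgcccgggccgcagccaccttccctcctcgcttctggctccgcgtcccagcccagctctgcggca
Synpo: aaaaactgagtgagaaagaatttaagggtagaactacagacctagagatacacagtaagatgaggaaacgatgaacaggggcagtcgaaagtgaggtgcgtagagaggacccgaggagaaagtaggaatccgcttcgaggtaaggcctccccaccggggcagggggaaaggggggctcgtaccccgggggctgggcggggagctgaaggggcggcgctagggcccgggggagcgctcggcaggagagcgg
The first window lies on chromosome 1 (94848011 to 94848260, plus strand), the second on chromosome 4 (61149132 to 61149381, minus strand) and the third on chromosome 18 (56347360 to 56347609, minus strand). The stricter zinc finger motif GCGGGGGCG was searched on both strands and was in 0 of the 5 upstream windows, against 2.45% of 33469 windows of all genes. The looser GNGGGGGNG, which contains it, was in 1 of 5, the Podxl window, starting 145 bases before the annotated start, and in 15% of all windows. GC content was 57.2% before Nphs1, 76.4% before Podxl, 60.4% before Synpo, 71.6% before Wt1 and 66% before Ptpro, with a median of 51.2% over all genes.

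A value here is proportional to the mean read coverage of an exon base, by a factor of each library that is not known, and the kidney libraries were put on 1 scale by a trimmed mean, so levels can be compared between genes but are not numbers of reads. Changes are differences of log2(scaled coverage + 0.1), and the added 0.1 shrinks those of low genes such as Synpo and Wt1. A change is called where the adjusted p of limma with Benjamini-Hochberg adjustment over 10447 kidney loci is under 0.05. The kidney libraries themselves differed by group. Relative sequencing depth had a median of 1.10 in young vehicle, 1.13 in aged vehicle and 0.969 in RAD001 kidneys. The signal recognition particle RNA 7SL had a deposited coverage of 22484 to 27719, 22242 to 30427 and 27814 to 40949 in the same groups, and the ribosomal RNA precursor Rn45s one of 362 to 516, 353 to 544 and 182 to 278. RAD001 kidneys were therefore outside the range of both vehicle groups for Rn45s. The part of these differences in the changes below was not tested beyond a fit with 7SL as a covariate. Summed proximal tubule markers had medians of 1153, 769 and 925 in the same groups. Both covariates used below, 7SL and the mean level of these markers, thus differed between some groups. A fit with either takes out part of the group difference, so what a call lost in it owes to the covariate cannot be told. Within groups, young vehicle replicate 1 was far above the others for Nphs1 and Podxl and aged vehicle replicate 6 for Synpo, and counts are also given without both. The kidney markers Umod, Slc34a1, Aqp2, Slc12a1 and Lrp2 had medians of 4.66 or more in kidney and of 0.361 or less in the other tissues.

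In kidney the order of the 5 transcripts per base was stable. Podxl was above Ptpro and Ptpro above Nphs1 in 28 of 28 libraries, and Nphs1 was above Synpo in 27 of 28. Synpo and Wt1, the lowest pair, were the neighbours whose order varied. Synpo was above Wt1 in 9 of 10 young vehicle and 10 of 10 aged vehicle kidneys but in 4 of 8 RAD001 kidneys. Coverings of 10-base exon bins, summed over the bins of a gene, ran per kidney library from 1398 to 5007 for Nphs1, 7001 to 19464 for Podxl, 3957 to 9305 for Ptpro, 318 to 1252 for Synpo and 264 to 867 for Wt1. A bin can be covered many times and a read covers several bins, so the reads behind Synpo and Wt1 are fewer than these numbers and their values are the least precise.

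Nephrin transcript was lowest in aged vehicle kidneys, with wide overlap. Nphs1 ran from 0.191 through a median of 0.256 to 0.444 in young vehicle kidneys, from 0.139 through 0.226 to 0.333 in aged vehicle kidneys and from 0.166 through 0.264 to 0.369 in RAD001 kidneys. All groups overlapped, although 1 of 10 aged vehicle kidneys was above the young median and 7 of 8 RAD001 kidneys were above the aged vehicle median. The means were 0.269 ± 0.0679 (SD, n = 10), 0.220 ± 0.0578 (SD, n = 10) and 0.261 ± 0.0590 (SD, n = 8). On the log2 scale the change with age was -0.21 (SE 0.106, adjusted p = 0.111) and that of RAD001 against aged vehicle 0.18 (SE 0.112, adjusted p = 0.204), so neither was called. Without aged vehicle replicate 6 the age change was -0.26 and was called (adjusted p = 0.0393).

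Podocalyxin, the most abundant of the 5 per base, had no called change. Podxl ran from 0.915 through a median of 1.21 to 1.90 in young vehicle kidneys, from 0.819 through 1.147 to 1.69 in aged vehicle kidneys and from 0.937 through 1.17 to 1.28 in RAD001 kidneys. The groups overlapped throughout. The log2 changes were -0.08 with age (SE 0.106, adjusted p = 0.565) and 0.03 with RAD001 (SE 0.113, adjusted p = 0.850).

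The phosphatase Ptpro was higher in RAD001 than in aged vehicle kidneys. It ran from 0.567 through a median of 0.723 to 0.984 in young vehicle kidneys, from 0.499 through 0.688 to 0.797 in aged vehicle kidneys and from 0.633 through 0.757 to 0.971 in RAD001 kidneys. Of the RAD001 kidneys 7 of 8 were above the aged vehicle median, and the groups overlapped. Means were 0.725 ± 0.122 (SD, n = 10), 0.658 ± 0.0977 (SD, n = 10) and 0.785 ± 0.117 (SD, n = 8), a ratio of 1.19 between RAD001 and aged vehicle. The change with RAD001 was called (log2 0.22, SE 0.0888, adjusted p = 0.0466), and that with age was not (log2 -0.12, SE 0.0837, adjusted p = 0.256). The call sat at the threshold and was lost on leaving out any 1 of aged vehicle replicates 1, 3, 5, 7 and 8 or RAD001 replicates 1, 2, 3, 6 and 7 (log2 0.18 to 0.23, adjusted p 0.0512 to 0.11). It was also lost under upper quartile scaling (0.18, adjusted p = 0.116) and with values as deposited (0.20, adjusted p = 0.136). With the proximal tubule level as a covariate it was lost at 0.094 (adjusted p = 0.542). With 7SL as a covariate it was lost although the estimate was larger (0.43, adjusted p = 0.0639).

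Synaptopodin transcript was higher in aged than in young vehicle kidneys. Synpo ran from 0.0933 through a median of 0.117 to 0.213 in young vehicle kidneys, from 0.134 through 0.157 to 0.242 in aged vehicle kidneys and from 0.103 through 0.129 to 0.169 in RAD001 kidneys. All 10 of 10 aged vehicle kidneys were above the young median, and 8 of 10 young kidneys were below the aged median, so the ranges overlapped through the few highest young libraries. Means were 0.129 ± 0.0402 (SD, n = 10), 0.165 ± 0.0312 (SD, n = 10) and 0.134 ± 0.0208 (SD, n = 8), a ratio of 1.27 between aged and young. The age change was called (limma, log2 0.22, SE 0.0815, adjusted p = 0.0310). RAD001 kidneys were lower than aged vehicle kidneys by a change that was not called (log2 -0.17, SE 0.0864, adjusted p = 0.111), with 1 of 8 above the aged vehicle median. The age call was lost on leaving out any 1 of young vehicle replicates 2, 4, 5, 7 and 8 or aged vehicle replicates 1 and 6 (log2 0.18 to 0.21, adjusted p 0.0501 to 0.0685). Between kidney libraries, Synpo deviations from the group mean also followed relative depth (Pearson r = 0.542, permutation adjusted p = 0.00693; Spearman rho = 0.471, permutation adjusted p = 0.0393; r = 0.506 without the 2 farthest libraries), the part of which in the change was not tested.

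Wt1 had its highest median in RAD001 kidneys and no called change. It ran from 0.0644 through a median of 0.0934 to 0.178 in young vehicle kidneys, from 0.0861 through 0.116 to 0.165 in aged vehicle kidneys and from 0.0947 through 0.143 to 0.198 in RAD001 kidneys. All 8 of 8 RAD001 kidneys were above the young median, and the ranges still overlapped. Means were 0.105 ± 0.0352 (SD, n = 10), 0.119 ± 0.0252 (SD, n = 10) and 0.142 ± 0.0320 (SD, n = 8). Log2 changes were 0.10 with age (SE 0.0883, adjusted p = 0.373), 0.14 with RAD001 (SE 0.0937, adjusted p = 0.242) and 0.24 for RAD001 against young vehicle (SE 0.0937, adjusted p = 0.0551). The last was called without young vehicle replicate 1, 3 or 9 or RAD001 replicate 1 or 5 (log2 0.26 to 0.29, adjusted p 0.0146 to 0.0498).

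**Figure D1:**
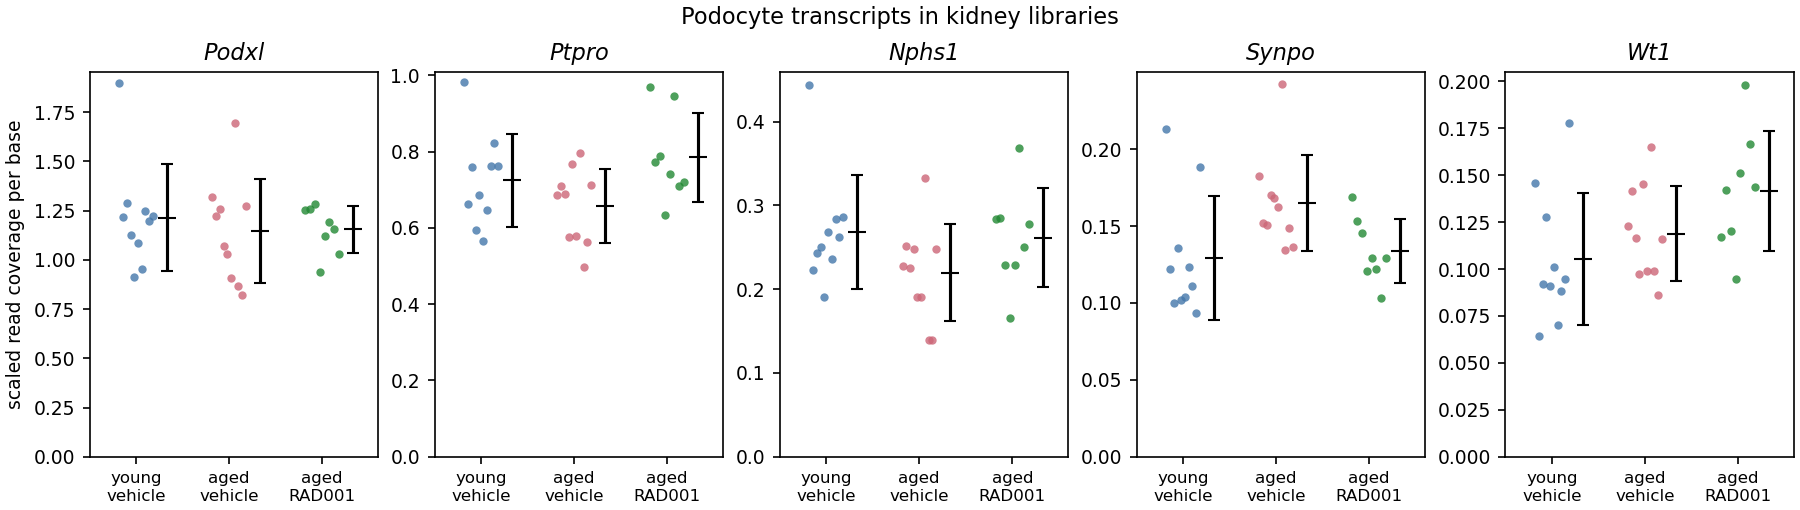
Scaled read coverage per base of the 5 podocyte transcripts in the 28 kidney libraries, 1 point per library, with mean and SD beside each group. The groups overlap for every transcript; Synpo is highest in aged vehicle kidneys and the highest young library is replicate 1 for both Nphs1 and Podxl.

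The counts of called genes are set beside the share of all tested kidney loci. With age 1 of 5 was called higher and 0 lower, where 43% of all tested loci were called, 20.8% higher and 22.2% lower. With RAD001 against aged vehicle 1 of 5 was called higher and 0 lower, where 37.4% of loci were called, 18.3% higher and 19.1% lower. Against young vehicle, RAD001 kidneys had 0 of 5 called by limma (1 of 5 at an unadjusted p under 0.05, Wt1), where 26.5% of loci were called, 12% higher and 14.5% lower. The median log2 change of the 5 was -0.08 with age, 0.14 with RAD001 and 0.04 against young, beside medians over all loci of -0.000745, 0.000147 and 0.00905. The aged vehicle libraries enter both the age and the RAD001 comparison, so opposite signs in these comparisons are not independent.

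**Figure D2:**
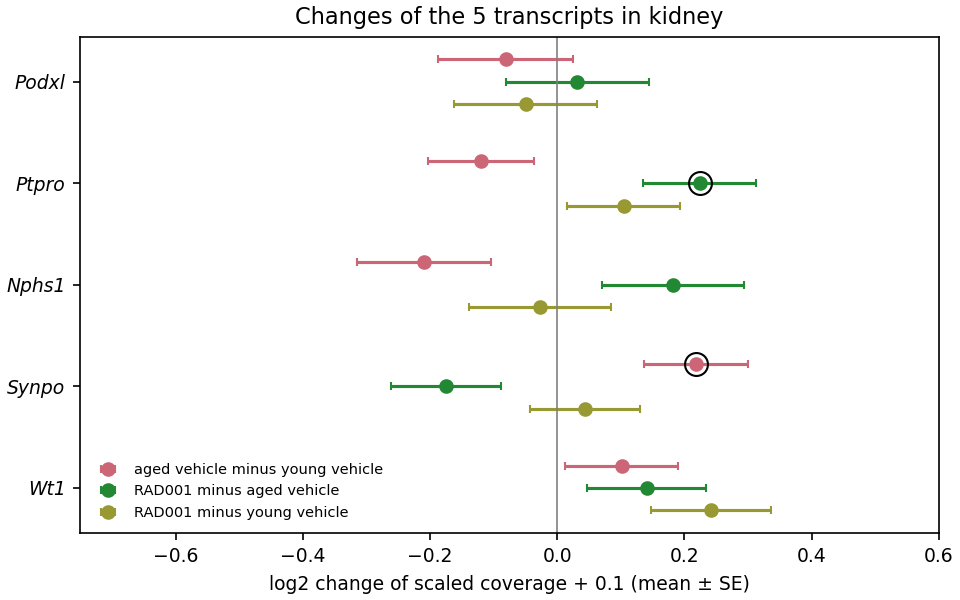
Log2 change of scaled coverage + 0.1 for each transcript in the 3 kidney comparisons, as estimate and SE; circled points have an adjusted p under 0.05 in limma. Only the age change of Synpo and the RAD001 change of Ptpro are circled.

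Ratios to Nphs1 within a library do not depend on how libraries are scaled apart from the added 0.1. The log2 ratio of Synpo to Nphs1 ran from -0.90 through a median of -0.68 to -0.42 in young vehicle kidneys, from -0.56 through -0.28 to 0.05 in aged vehicle kidneys and from -1.08 through -0.56 to -0.27 in RAD001 kidneys. Aged vehicle kidneys were shifted upward, with overlap at the edges. The mean log2 ratio was higher by 0.43 in aged than in young vehicle kidneys (permutation test, 2-sided, p = 0.00018, adjusted over 12 tests p = 0.00216) and differed by -0.36 between RAD001 and aged vehicle (permutation adjusted p = 0.0141). Without the added 0.1 these differences were 0.69 and -0.56. RAD001 and young vehicle kidneys differed by 0.07 (SD 0.249 and 0.172; permutation adjusted p = 0.647). Both called differences were still called after leaving out any 1 library of the groups compared.

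The ratio of Wt1 to Nphs1 was higher in aged than in young vehicle kidneys. It ran from -1.14 through a median of -0.88 to -0.48 in young vehicle kidneys, from -0.82 through -0.55 to -0.25 in aged vehicle kidneys and from -0.82 through -0.61 to -0.39 in RAD001 kidneys. Both aged groups lay higher than the young group, and overlapped it. The mean difference was 0.31 with age (permutation adjusted p = 0.0141), -0.04 for RAD001 against aged vehicle (permutation adjusted p = 0.681) and 0.27 for RAD001 against young vehicle (permutation adjusted p = 0.0281). The last was not called without young vehicle replicate 1 or RAD001 replicate 5, 6 or 8 (0.24 to 0.25, permutation adjusted p 0.0506 to 0.0611). Without the added 0.1 the age difference was 0.52. The difference between the responses of the Synpo and Wt1 ratios to RAD001 was not tested. All ratios share the same Nphs1 values, so their differences are not independent. Taken alone, Wt1 changed by 0.10 and Nphs1 by -0.21 with age, neither called.

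The apical membrane transcripts had no called difference in their ratio to Nphs1. For Podxl the age difference in log2 ratio was 0.13 (permutation adjusted p = 0.0753), which became 0.21 without the added 0.1 and was then called (permutation adjusted p = 0.0207). It was also called without young vehicle replicate 2 or 10 or aged vehicle replicate 3 or 5 (0.15, permutation adjusted p 0.0248 to 0.0366). For Ptpro the difference was 0.09 with age and 0.04 with RAD001, and neither was called (permutation adjusted p = 0.423 and 0.681).

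**Figure D3:**
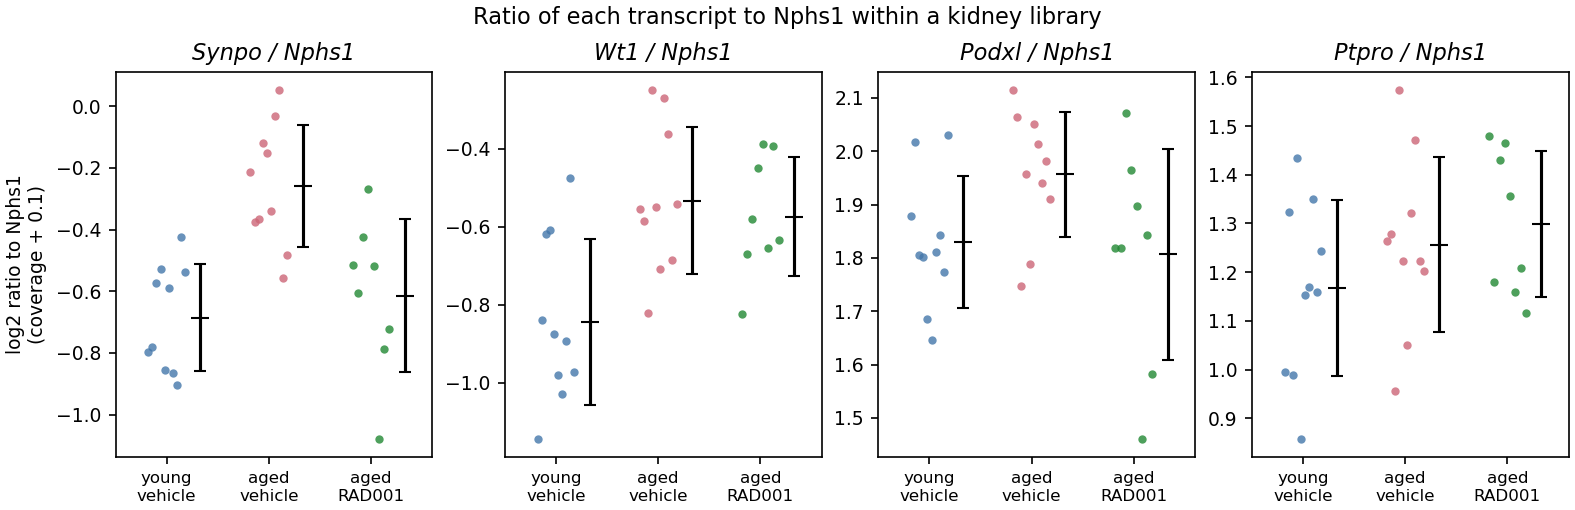
Log2 ratio of each transcript to Nphs1 within a kidney library (coverage + 0.1), 1 point per library, with mean and SD. The Synpo ratio is highest in aged vehicle kidneys and lower in RAD001 kidneys, while the Wt1 ratio is higher in both aged groups than in the young group.

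Taken over all 28 kidney libraries with group means removed, the 5 transcripts varied together. Deviations from the group mean over 28 kidney libraries had a Pearson r of 0.489 to 0.828 in the 10 pairs, with permutation adjusted p at or under 0.0165 in 10 of 10 and with 8 of 10 called by Spearman's rho. Nphs1 and Podxl were the closest pair (r = 0.828, permutation adjusted p = 0.0001; rho = 0.683, permutation adjusted p = 0.00085; r = 0.705 without the 2 farthest libraries). Within groups their r was 0.887 in young vehicle, 0.920 in aged vehicle and 0.555 in RAD001 kidneys. Podxl and Ptpro had r = 0.751 (rho = 0.714), and Nphs1 and Ptpro r = 0.721 (rho = 0.632). The 4 pairs with Synpo, at 0.489 to 0.611, fell to 0.23 to 0.31 without the 2 farthest libraries and so rested on them. In RAD001 kidneys alone (n = 8) Synpo and Wt1 went opposite ways (r = -0.399). There Nphs1 and Synpo had r = 0.18, Podxl and Wt1 0.306, and the remaining pairs 0.365 to 0.777.

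Endothelial and proximal tubule markers varied with several of them. The mean log2 level of the endothelial markers, a list not limited to the glomerulus, followed Podxl (Pearson r = 0.810, rho = 0.754, permutation adjusted p = 0.00025 for each). It also followed Ptpro (r = 0.694, rho = 0.630), Nphs1 (r = 0.671, rho = 0.581) and Synpo (r = 0.665, rho = 0.493). That of proximal tubule markers followed Podxl (r = 0.682, rho = 0.713) and Nphs1 (r = 0.638, rho = 0.560). Podxl is itself an endothelial gene. These relations were among 25 computed after the data had been seen, of which 7 were called by Pearson's r with a permutation adjusted p under 0.05. What in a kidney sample moved these markers together was not tested.

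Among 6395 genes with a mean scaled coverage of at least 0.5, those most like each transcript over the 28 kidney libraries, by Pearson's r of deviations from the group mean, were as follows. For Nphs1 they were Mapt (r = 0.859), Bnc2 (0.847) and Slc7a8 (0.838). Podxl was most like Sema3g (0.888), a semaphorin on the list of podocyte markers, Kdr (0.877), the VEGF receptor of endothelium, and Wnk1 (0.871). Ptpro was most like Cgnl1 (0.814), Kdr (0.786) and Dag1 (0.771), the matrix receptor dystroglycan. Synpo and Wt1 had weaker neighbours, led by Wbp2 (0.761) and Sfxn2 (0.642). For the mean of the 5 the closest were Srrm2 (0.862), Sema3g (0.858) and Kdr (0.844), followed by Tcn2, Slc7a8, Insr, Cgnl1, Tns1, Mapt and Arhgap10.

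Among the other genes of the slit diaphragm, several junction and adaptor genes rose with age and fell with RAD001. Kirrel, the nephrin-like adhesion protein Neph1, ran from 0.0946 through 0.131 to 0.196 in young vehicle, from 0.138 through 0.240 to 0.253 in aged vehicle and from 0.0927 through 0.139 to 0.166 in RAD001 kidneys. The aged vehicle median was above every young and every RAD001 kidney. Kirrel rose with age (log2 0.41, adjusted p = 0.000709) and fell by 0.40 with RAD001 (adjusted p = 0.00251). The same pattern was seen for Cd2ap, an adaptor linking nephrin to actin (0.22 with age, adjusted p = 0.00403; -0.31 with RAD001, adjusted p = 0.000418), for the Src family kinase Fyn, which phosphorylates nephrin (0.28 and -0.30), and for the scaffold Iqgap1 (0.33 and -0.23), all called in both comparisons. Fat1, a giant protocadherin of the slit (0.28), Nck2, an adaptor to phosphorylated nephrin (0.17), and Cdh3, P-cadherin (0.20), rose with age, and the ephrin Efnb1 (-0.24) and the scaffold Magi1 (-0.12) fell.

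In all, 7 of 16 tested slit diaphragm genes rose and 2 fell with age (median log2 change 0.15), against 20.8% and 22.2% of all loci, and 0 rose and 4 fell with RAD001 (median -0.13), against 18.3% and 19.1%. The highest RAD001 change in the list was that of Efnb1 (0.19, unadjusted p = 0.0203, limma adjusted p = 0.0533). The list of 20 symbols holds Kirrel under a second symbol, Kirrel1, which was not used here, and Magi2, Kirrel2 and Kirrel3 were below the filter. Without the 2 libraries that stood apart (young vehicle replicate 1 and aged vehicle replicate 6) the counts were 9 and 2 with age and 1 and 4 with RAD001. Under upper quartile scaling they were 10 and 1 with age and 0 and 8 with RAD001. With the proximal tubule level as a covariate they were 1 and 0 with age, none of Kirrel (0.32), Cd2ap (0.066), Fyn (0.14) and Iqgap1 (0.12) being called, and with 7SL as a covariate they were 0 and 0 with RAD001. Most of these genes are expressed outside podocytes as well, and the part of other cells in their changes was not tested.

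**Figure D4:**
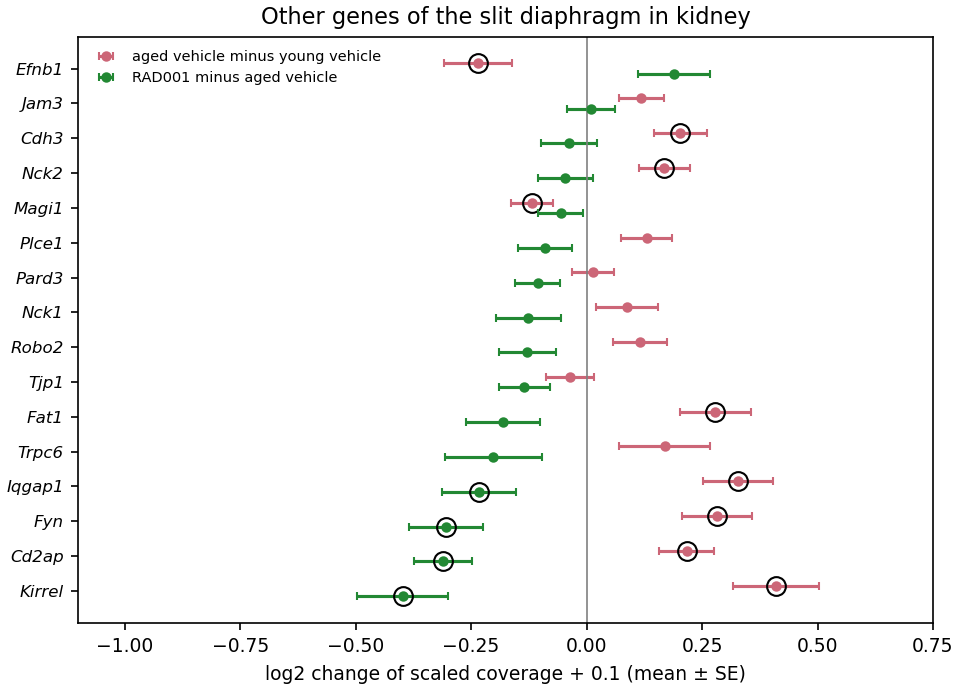
Log2 change of scaled coverage + 0.1, as estimate and SE, of 16 other slit diaphragm genes with age and with RAD001 in kidney; circled points have an adjusted p under 0.05 in limma. Kirrel, Cd2ap, Fyn and Iqgap1 are called higher with age and lower with RAD001.

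Of 14 foot process cytoskeleton genes, 3 rose and 6 fell with age, and 2 rose and 5 fell with RAD001, against 20.8% and 22.2% of all loci with age and 18.3% and 19.1% with RAD001. Actn4, the actin crosslinker alpha-actinin-4, fell by 0.37 with age (5.61 ± 0.671, SD, n = 10, in young and 4.32 ± 0.431, SD, n = 10, in aged vehicle kidneys; adjusted p = 3.86e-05) and did not change detectably with RAD001 (0.07, adjusted p = 0.413). Arhgap24, a Rac GTPase-activating protein, fell by 0.37 with age and rose by 0.30 with RAD001 (adjusted p = 3.00e-06 and 0.000175). Vim, the intermediate filament vimentin of podocytes, fibroblasts and other mesenchymal cells, rose by 1.18 with age and fell by 0.64 with RAD001 (adjusted p = 8.25e-07 and 0.00251). Pdpn, podoplanin, fell by 0.47 with RAD001 (adjusted p = 0.00161). With the proximal tubule level as a covariate the age changes of Actn4 (-0.16, adjusted p = 0.248) and Arhgap24 (-0.18, adjusted p = 0.0846) and the RAD001 changes of Vim (-0.20, adjusted p = 0.275) and Pdpn (-0.30, adjusted p = 0.0824) were not called. With 7SL as a covariate the RAD001 changes of Arhgap24 (0.23), Vim (-0.41) and Pdpn (-0.36) were not called.

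The list of podocyte transcription factors had 3 tested genes besides Wt1, namely Tcf21, Foxc1 and Pax2. Which kidney cells express them was not tested. Of these 3, 1 rose with age and 0 fell, where 20.8% and 22.2% of all loci did. With RAD001 0 of 3 were called by limma, where 37.4% of all loci were called. The RAD001 count was 0 also under every scaling, pseudocount and filter tried, and at an unadjusted p under 0.05. Tcf21, a basic helix-loop-helix factor of podocytes and kidney stroma, had a mean of 1.63 ± 0.145 (SD, n = 10) in young and 2.05 ± 0.347 (SD, n = 10) in aged vehicle kidneys, and it rose by 0.31 (adjusted p = 0.00387). With the proximal tubule level as a covariate the age change of Tcf21 was 0.10 and not called. Foxc1 and Pax2 had age changes of 0.01 and 0.05.

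Of 12 other podocyte markers, 2 rose and 4 fell with age and 3 rose and 3 fell with RAD001, where 43% and 37.4% of all loci were called in either direction. Cdkn1c, the cell cycle inhibitor p57 that marks mature podocytes, ran from 0.472 through a median of 0.615 to 0.742 in young vehicle kidneys, from 0.754 through 0.850 to 1.18 in aged vehicle kidneys and from 0.936 through 1.08 to 1.33 in RAD001 kidneys. Young vehicle kidneys overlapped neither aged group, and the aged groups overlapped each other. The log2 changes were 0.45 with age (adjusted p = 1.68e-05), 0.27 with RAD001 (adjusted p = 0.00852) and 0.72 for RAD001 against young vehicle (adjusted p = 6.11e-08). Mme, the metalloprotease neprilysin, and Enpep, aminopeptidase A, which are also brush border enzymes, fell with age (-0.72 and -0.33, adjusted p = 2.11e-05 and 0.000233), and Mme rose with RAD001 (0.47, adjusted p = 0.00496). With the proximal tubule level as a covariate none of these 3 changes was called (Mme -0.37 with age and 0.24 with RAD001, Enpep -0.12 with age; adjusted p = 0.162, 0.213 and 0.445), and with 7SL as a covariate that of Mme with RAD001 was 0.45 (adjusted p = 0.207). Nupr1 and Angptl2 were called lower with RAD001 in every fit that left out 1 library (log2 -1.01 to -0.82 and -0.36 to -0.31). With 7SL as a covariate neither was called (-0.80 and -0.29). With the proximal tubule level Nupr1 was not called (-0.46, limma adjusted p = 0.137).

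Markers of other kidney cells moved with the same groups, and their part in the changes above was not tested. Of all tested kidney loci 20.8% rose and 22.2% fell with age, and 18.3% rose and 19.1% fell with RAD001. Of 20 proximal tubule markers 15 fell with age and 12 rose with RAD001, none the other way, and their summed scaled coverage ran from 1039 to 1344 in young vehicle, 504 to 1024 in aged vehicle and 830.1 to 1046 in RAD001 kidneys. Of 10 macrophage markers 10 rose with age and 8 fell with RAD001, with sums of 14.2 to 23.9, 24.96 to 71.4 and 21.3 to 40.8. Of 12 mesangial and mural markers 7 rose and 2 fell with age, and 1 rose and 8 fell with RAD001. Of 14 endothelial markers, a list not limited to the glomerulus, 0 rose and 3 fell with age (Pecam1, Tie1 and Kdr). Kdr was not called without young vehicle replicate 1 or aged vehicle replicate 5 or 7 (-0.25 to -0.21). With RAD001 2 rose and 1 fell (Egfl7 0.26, Plvap 0.37 and Tek -0.20). None of these RAD001 changes was called with 7SL as a covariate (0.092, 0.33 and -0.038), and Tek was not called without RAD001 replicate 7. The endothelial sums were 14.2 to 17.5 in young vehicle, 13.5 to 16.8 in aged vehicle and 15.4 to 17.6 in RAD001 kidneys. The 3 of 14 endothelial markers that fell with age were close to the share of all loci. With the mean proximal tubule level as a covariate, the age changes of Nphs1, Podxl and Ptpro turned from negative to positive (0.19, 0.35 and 0.08). None of these was called, while the age change of Synpo kept its sign and its call.

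Outside kidney the 5 genes ranged from undetected to higher than in kidney. Nphs1 was listed at 0 in 26 of 28 liver and 16 of 28 gastrocnemius libraries, with highest deposited values of 0.00114 and 0.00453 against a kidney median of 0.245. Wt1 was listed at 0 in 12 of 28 liver and 26 of 28 gastrocnemius libraries, with a kidney median of 0.123. Ptpro and Podxl were present at lower levels: Ptpro had medians of 0.686 in kidney, 0.0628 in liver and 0.0742 in gastrocnemius, and Podxl 1.12, 0.0897 and 0.328. Synpo was the exception, with a higher median in gastrocnemius (0.259) than in kidney (0.138) or liver (0.0384). All these levels are deposited values that were not put on 1 scale across tissues, so their ratios between tissues are approximate.

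**Figure D5:**
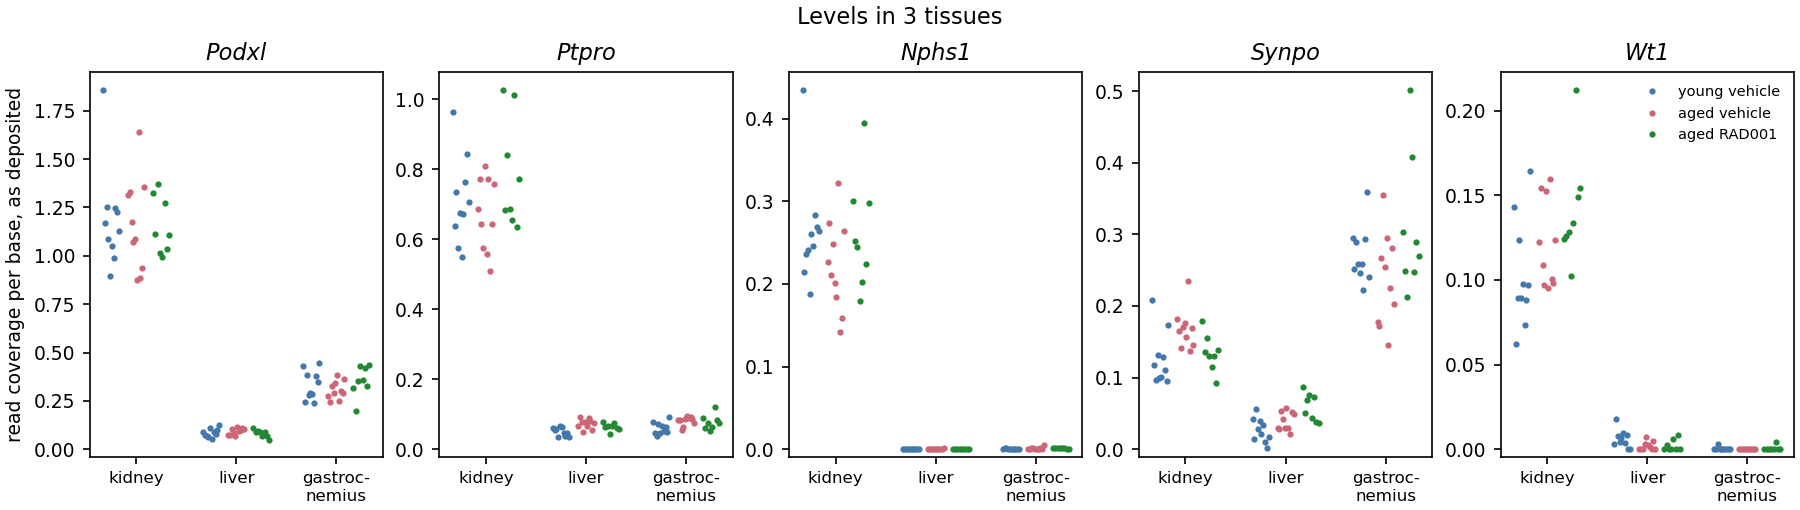
Read coverage per base as deposited for the 5 transcripts in kidney, liver and gastrocnemius, 1 point per library, coloured by group. Nphs1 and Wt1 are at or near 0 outside kidney, and Synpo is highest in gastrocnemius.

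In liver only Podxl passed the filter, and in gastrocnemius Podxl and Synpo. Podxl in liver changed by 0.03 with age and -0.06 with RAD001 (limma adjusted p = 0.789 and 0.587), where 16.6% and 15.7% of tested liver loci were called. In gastrocnemius Synpo changed by -0.26 with age (SE 0.12, adjusted p = 0.0847) and 0.32 with RAD001 (SE 0.127, adjusted p = 0.142), and Podxl by -0.19 and 0.20 (adjusted p = 0.0961 and 0.228), where 35.4% and 3.37% of tested loci were called. None of these was called.

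The Synpo response itself differed between kidney and gastrocnemius. In a joint fit of all 84 libraries the age change in kidney minus that in gastrocnemius was 0.47 (SE 0.139, limma adjusted p = 0.00545), where 32.4% of 11365 loci were called for this interaction. The RAD001 change in kidney minus that in gastrocnemius was -0.47 (SE 0.148, adjusted p = 0.0142), where 22% of loci were called. The aged vehicle libraries enter both differences. The fit treats libraries of different tissues as independent, and the labels do not say whether they share rats. For Podxl the age difference was 0.12 against gastrocnemius (adjusted p = 0.525) and -0.14 against liver (adjusted p = 0.486), and the RAD001 differences were -0.16 and 0.12 (adjusted p = 0.458 and 0.562). None was called, where 26.5% of loci were called for age and 26.9% for RAD001 against liver.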

How the data were processed

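RNA of 28 libraries per tissue was measured. Alignment used STAR 2.4.5a and build rn5, per the submitters' processing notes, and neither the summarising tool nor its annotation is given in the sources used here. Each deposited number is a coverage signal of 1 locus (mean read coverage per base times a factor per library), a unit read from the values: short loci gave whole multiples of 1 step per library at 96.7% to 100% of the 66 to 181 loci tested, within a relative tolerance of 0.0001. The step was the largest within 0.05 of the best score, a margin widened after seeing that some libraries had taken a fraction of it. Its inverse is the relative depth (0.826 to 1.41). Read numbers are unknown here.

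Kidney loci reaching 0.1 in 8 or more libraries were kept. Library scaling used log ratios trimmed by 30% on each side. The limma model (version 3.58.1, R 4.3.3) took log2(scaled value + 0.1) with 1 mean per group and Benjamini-Hochberg adjustment. Liver and gastrocnemius were fitted alike, and a joint fit gave the tissue interactions. Ratios and correlations were tested by permutation (100000 resamples, SciPy 1.17.1), adjusted within their family. The fit was also run on simulated data made by shuffling residuals within each gene. Shuffling each gene apart removed variation shared between genes, so calls under such variation were not checked. Tables were handled with pandas 2.3.3, NumPy 2.4.6 and Python 3.11.15, and with data.table (version 1.17.8) in R, and plots drawn with matplotlib 3.10.9.

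The 5 genes, the gene lists and the tests were chosen with earlier results of these data known. The text names the 5 genes, Cd2ap, Kirrel, Actn4 and Tcf21, up to 3 called genes with the smallest p per list and comparison, and the genes most like each of the 5; Fat1, Nck2, Cdh3, Efnb1, Magi1, Foxc1 and Pax2 were added after their values were seen. A few genes of the lists were left out of all list counts and are not reported here. The labels do not say that each library is a separate rat or which libraries share one, so p-values measure the spread between libraries. Promoter windows matched 5 of 5 symbols in a RefSeq table (GRCr8). Alternatives were other scalings, pseudocounts, filters and thresholds, quality weights, covariates, the replicate number as a block, and each library left out.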

Additional observations from a re-analysis of the deposited data

Results flagged for a closer look

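In young vehicle kidneys, replicate 1 stood apart from the other 9 libraries for Nphs1, at 0.444, and for Podxl, at 1.90. The gap to the next library was 0.623 and 0.619 of the whole range of the group. In aged vehicle kidneys replicate 6 stood apart for Synpo, at 0.242, with a gap of 0.551 of the range. In all 3 cases the library was the highest of its group. The rule looked at 15 groups of libraries and chance alone flags about 1 in 20. Without aged vehicle replicate 6 the age change of Synpo was no longer called (0.18, adjusted p = 0.0685) and that of Nphs1 was called (-0.26, adjusted p = 0.0393).

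The age change of Synpo was higher in kidney than in gastrocnemius by 0.47 on the log2 scale, and its RAD001 change differed by -0.47, both called as interaction terms by limma (adjusted p = 0.00545 and 0.0142). The Synpo values had opposite signs in kidney and gastrocnemius in both comparisons. Of these 4 changes only that of kidney with age was called within its tissue.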

How the results depend on the processing

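Of 1716 values under all alternatives that kept every library or left out both libraries that stood apart, 1536 kept direction and side of the threshold. For counts of called genes, kept means a similar count. Most of the 1716 values belong to 103 changes of other named genes. Those were largely picked as the called genes with the smallest p, so their staying called was partly built in. The Synpo to Nphs1 ratio differences with age and with RAD001 were called under every alternative tried for ratios. Those were other pseudocounts, medians, the replicate number as a block and left-out libraries. Covariates were not applied to the ratios. Between kidney libraries, proximal tubule markers followed Nphs1 at Pearson r = 0.638 and Synpo at 0.373, and relative depth followed them at 0.257 and 0.542. The part of either in the ratio differences was not tested. The cause of each change of direction or call was not tested. Read numbers are unknown, so counting error could not be given.

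With the proximal tubule level as a covariate the age changes were 0.19 for Nphs1, 0.35 for Podxl and 0.084 for Ptpro, the RAD001 changes -0.072 for Nphs1, -0.25 for Podxl, -0.28 for Synpo (called, adjusted p = 0.0437) and 0.094 for Ptpro (not called), and against young vehicle 0.12 for Nphs1, 0.11 for Podxl and 0.30 for Wt1 (called). Other genes turned in that fit as well. With age Col4a3 was 0.068, Col4a4 0.038, Itgb1 -0.078, Kdr 0.095, and Krt19 -0.085, and with RAD001 Actn4 was -0.059 and Tcf21 0.039. With 7SL as a covariate Ptpro was 0.43 with RAD001, and against young vehicle Nphs1 was 0.059, Podxl 0.13 and Synpo -0.036. The 7SL fit called 441 loci with RAD001 against 3910, and the proximal tubule fit 668 with age against 4492. With age the 7SL fit called 4522. Each covariate differed between the groups where these calls were lost, so what the loss owes to that overlap cannot be told.

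With a filter of 1 in 8 libraries, which only Podxl passed, Podxl was 0.00167 with age and -0.036 with RAD001. Under upper quartile scaling Podxl was -0.017 and Ptpro 0.18 with RAD001, and 64.6% of called loci were higher with age against 48.4%, and 33.6% with RAD001 against 49%. With values as deposited Ptpro was 0.20 with RAD001, Wt1 0.25 against young vehicle (called), and these shares were 62.8% and 39.2%. Ptpro was 0.22 without a filter (adjusted p = 0.0636) and 0.21 with quality weights, neither called. At a threshold of 0.01 neither Synpo with age (0.22) nor Ptpro with RAD001 (0.22) was called. With quality weights, against young vehicle, Podxl was 0.0032 and Wt1 0.25 (called). Without both libraries that stood apart, an alternative chosen after seeing the data, Nphs1 was 0.037, Podxl 0.020 and Wt1 0.27 (called) against young vehicle. Accordingly 0 of 5 were called with age at 0.01. With RAD001 0 were called under upper quartile scaling, values as deposited, no filter, the threshold of 0.01, quality weights and the 7SL covariate. Against young vehicle 1 was called with values as deposited, quality weights, the proximal tubule covariate and without both libraries.

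For ratios to Nphs1, Podxl with age was 0.21 without the added 0.1 (called), Ptpro with RAD001 -0.0085 without it, and Podxl against young vehicle 0.022 by medians. Wt1 against young vehicle was not called with 0.5 added (0.10), by medians (0.28) or without both libraries (0.24). Replicate numbers are shared between groups, but same-numbered libraries did not deviate together (correlation over 0.1 in 2 of 10, 3 of 8 and 2 of 8 pairs, and the own number best in 1 library of each comparison), so the numbers do not pair them. With the replicate number as a block, the Wt1 ratio was 0.31 with age (adjusted p = 0.0625) and 0.28 against young vehicle (adjusted p = 0.0656), neither called. No call of the 5 genes in limma changed, and 4410, 3555 and 2555 loci were called with age, with RAD001 and against young vehicle.

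Leaving out each library in turn, age changes ranged from -0.26 to -0.14 for Nphs1, from 0.18 to 0.27 for Synpo, and RAD001 changes from -0.015 to 0.093 for Podxl and from 0.18 to 0.26 for Ptpro. Against young vehicle the ranges were -0.083 to 0.037 for Nphs1, -0.089 to 0.020 for Podxl and 0.20 to 0.29 for Wt1. From 0 to 1 of 5 were called in each of the 3 comparisons. Ratios to Nphs1 ranged from 0.11 to 0.15 for Podxl with age, from -0.060 to 0.027 for Podxl against young vehicle and from 0.24 to 0.31 for Wt1 against young vehicle.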

Other observations

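Genes linked to podocyte stress and to parietal epithelial cells, which line Bowman's capsule, are set beside all kidney loci, of which 20.8% rose and 22.2% fell with age and 18.3% rose and 19.1% fell with RAD001. Of 9 tested stress genes 5 rose and 2 fell with age. Cdkn1a, the cell cycle inhibitor p21, rose by 1.02 on the log2 scale (limma adjusted p = 2.96e-10) and Ctgf, a matricellular growth factor, by 1.003 (adjusted p = 5.30e-09). Cdkn1a fell by 0.44 with RAD001, and the Ctgf change was not called (-0.21, adjusted p = 0.0779). Jag1 was called lower with age in every fit that left out 1 library (-0.54 to -0.43). Of the 9 stress genes 1 rose and 2 fell with RAD001. Bmp7 rose (0.28 to 0.35) and Tgfb1 fell (-0.44 to -0.36) with RAD001 in every fit that left out 1 library. Neither was called with 7SL (0.23 and -0.50) or with the proximal tubule level (0.094 and -0.30) as a covariate. Of 8 parietal epithelial markers 7 rose with age and 6 fell with RAD001. Cd44, the hyaluronan receptor of activated parietal cells and of leukocytes, rose by 1.33 and fell by 0.95, and Cldn1, the tight junction claudin-1, rose by 0.57 and fell by 0.34. With the proximal tubule level as a covariate Cd44 was 0.25 with age (adjusted p = 0.425) and -0.26 with RAD001 (adjusted p = 0.237), and Cldn1 -0.27 with RAD001 (adjusted p = 0.0838), none called. With 7SL as a covariate the RAD001 changes of Cdkn1a (-0.31), Cd44 (-0.81) and Cldn1 (-0.16) were not called. Macrophage markers rose in the same kidneys, and their part in Cd44 was not tested.

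Of 10 genes of the podocyte matrix and its anchors 4 rose and 2 fell with age, against 20.8% and 22.2% of all loci. Both that fell are collagen IV chains of the mature glomerular basement membrane, Col4a4 (5.56 ± 0.683 to 4.01 ± 1.08, SD, n = 10 each; log2 -0.50, limma adjusted p = 0.00168) and Col4a3 (-0.44, adjusted p = 0.00967). With RAD001 they had changes of -0.04 and 0.01, not called, and against young vehicle both were lower (-0.54 and -0.43, adjusted p = 0.0031 and 0.0275). The Col4a3 change against young vehicle was not called without RAD001 replicate 5 or 6 (-0.37 to -0.33). Both age changes turned with the proximal tubule level as a covariate (Col4a4 0.038, adjusted p = 0.901; Col4a3 0.068, adjusted p = 0.846), and that of Col4a3 against young vehicle was -0.24 (adjusted p = 0.15). With 7SL as a covariate neither was called against young vehicle (Col4a4 -0.53, Col4a3 -0.30). Of the 10 genes 0 rose and 4 fell with RAD001, against 18.3% and 19.1% of all loci. Agrn (-0.26 to -0.21), Lamb2 (-0.24 to -0.19) and Itgb1 (-0.26 to -0.20) were called lower in every fit that left out 1 library. Itgb1 had risen with age (0.19 to 0.26). With 7SL as a covariate none of these RAD001 changes was called. With the proximal tubule level Itgb1 was -0.078 with age and -0.037 with RAD001, neither called.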
